A study of Homo sapiens with 48 samples.

Results

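The annexins ANXA1, ANXA2, ANXA3, ANXA4, ANXA5, ANXA6, ANXA7 and ANXA11 are 8 of the 60610 genes in the deposited count table. The table held 17 rows whose symbol begins with ANXA, of which 13 were protein-coding annexin genes. The list was chosen by measured values: ANXA1 had stood out in an earlier comparison of EGF with control at 24 h in these libraries, and its relatives were added to it. That contrast, and the difference of the EGF response between both times, are therefore given as a description with no test. All 8 members passed the filter on low counts. ANXA1 (ENSG00000135046) lies on chr9:73151865-73170393, ANXA2 (ENSG00000182718) on chr15:60347151-60397986, ANXA3 (ENSG00000138772) on chr4:78551770-78610447 and ANXA4 (ENSG00000196975) on chr2:69643808-69827112 of GRCh38.p14.

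Libraries of poly(A) RNA were made from HEK293 cells, a line from human embryonic kidney. All cells came from 1 clone with a stable AT1R transgene, which encodes the angiotensin II (AII) receptor that couples to Gq, so every group carries the receptor, control included. In serum-free medium the clone received no stimulus (control), 1 nM AII, 10 µg/L EGF or both (AII + EGF), for 6 h or 24 h. By the labels each of 8 groups has 6 libraries, and 38 of all 48 were used here. At 6 h these were 4 control, 5 AII, 3 EGF and 4 AII + EGF libraries, and at 24 h 6, 5, 5 and 6 in the same order. Nothing in the labels ties replicates to separate cultures, so p-values measure the spread between these libraries, which may be technical.

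Annexins are cytosolic proteins that bind acidic phospholipids of membranes when calcium rises. They take part in exocytosis, in endosome traffic, in the link between membrane and actin, and in the repair of torn plasma membrane. ANXA1 is best known as a glucocorticoid-induced, anti-inflammatory protein that acts on formyl peptide receptors once outside the cell and is a classical substrate of the EGF receptor kinase inside it. ANXA2 forms a complex with S100A10 that binds plasminogen and its activator at the cell surface.

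Library totals of the 38 libraries were 22.3 ± 3.02 M counts (SD, n = 38), from 17.8 to 29.96 M, and the 3 EGF 6 h libraries were the deepest at 28.8 ± 1.02 M. In a comparison of all 1128 library pairs, 4 agreed within sampling noise (chi-square per degree of freedom under 1), and 3 of these joined different groups, so all 8 libraries of those pairs were left out. A further 2 libraries were left out because their labels are in doubt. On a scale over 1492 genes on which the AII 6 h libraries lie near 0 and the AII + EGF 6 h libraries near 1, AII 6 h replicate 6 lay at 0.851 and AII + EGF 6 h replicate 6 at -0.00510. The ANXA levels of the former were 67.1 CPM for ANXA1, 491 CPM for ANXA2, 7.03 CPM for ANXA3 and 17.8 CPM for ANXA4, and those of the latter were 63.1, 319, 11.9 and 26.1 CPM. These levels were scaled over all 48 libraries, unlike those of the 38 libraries used. The ANXA3 level of the latter lay above all 38 libraries used (highest 11.3 CPM), and so within the range of neither group. The ANXA1 levels of both lay between the AII 6 h (42.3 to 52.6 CPM) and the AII + EGF 6 h libraries used (68.3 to 72.0 CPM). Of 5 genes usually found in HEK293 cells, 4 (VIM, KRT8, KRT18 and NEFM) exceeded 1 CPM in every library and PAX2 did not, and of 7 markers of other cell types 5 (PTPRC, CD3E, PECAM1, CDH5 and ALB) stayed under 1 CPM in every library. The others did not: COL1A1 lay at 11.1 to 44.7 CPM and EPCAM at 0.268 to 1.72 CPM.

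The promoters of ANXA1, ANXA2 and ANXA3 are shown because these were the members that rose. Each is the 250 bases before the RefSeq start on GRCh38.p14, 5′ to 3′ on the strand of the gene. Capitals mark matches on either strand. The letters sought were TATAAA for the box bound by TBP, CCAAT for the element bound by NF-Y, TGANTCA for sites of AP-1 and GGGCGG for sites of SP1. Overlapping matches of 1 motif are drawn together.
ANXA1, chr9:73151615-73151864, plus strand: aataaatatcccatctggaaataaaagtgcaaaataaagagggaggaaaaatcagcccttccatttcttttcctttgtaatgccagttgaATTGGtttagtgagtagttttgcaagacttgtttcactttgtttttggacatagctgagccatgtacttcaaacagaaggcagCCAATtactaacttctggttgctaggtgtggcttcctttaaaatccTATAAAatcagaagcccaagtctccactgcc
ANXA2, chr15:60397987-60398236, minus strand: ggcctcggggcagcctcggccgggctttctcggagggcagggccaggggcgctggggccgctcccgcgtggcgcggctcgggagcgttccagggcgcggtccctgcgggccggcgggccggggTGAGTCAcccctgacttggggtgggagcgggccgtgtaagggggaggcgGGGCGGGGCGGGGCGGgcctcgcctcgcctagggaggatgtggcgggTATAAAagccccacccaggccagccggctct
ANXA3, chr4:78551520-78551769, plus strand: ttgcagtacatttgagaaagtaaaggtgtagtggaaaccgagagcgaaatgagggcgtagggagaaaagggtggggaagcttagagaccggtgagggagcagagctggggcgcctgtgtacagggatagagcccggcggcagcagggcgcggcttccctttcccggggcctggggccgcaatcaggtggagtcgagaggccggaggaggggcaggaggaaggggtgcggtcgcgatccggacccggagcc

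ANXA1 and ANXA2 both hold a TATAAA that begins 31 bases before the start, and ANXA11 holds one at 61 bases. This element stood in 3 of the 8 members and in 10.7% of 35116 RefSeq promoters of the same length. The ANXA2 promoter has the AP-1 letters TGAGTCA at 127 bases before the start, which is 1 of 8 members against 6.57% of all promoters. GGGCGG was found in 5 members and in 42.6% of all promoters, and CCAAT in 3 members, with 2 matches in ANXA1, and in 32.01% of all. TGACGTCA (a CRE; 1.65% of all) and CCGGAAG (an ETS site; 8.52% of all) matched no member in this window, and the CArG box, by which SRF binds DNA, matched ANXA7 and 1.16% of all promoters. None of these letters matched ANXA3 in this window. The ANXA1 promoter is low in GC (38.4%, against a median of 58.0% over all promoters), while that of ANXA2 is high (78.0%) and that of ANXA3 lies at 64.0%. These matches describe letters in a window and are not measured binding sites.

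**Figure D1:**
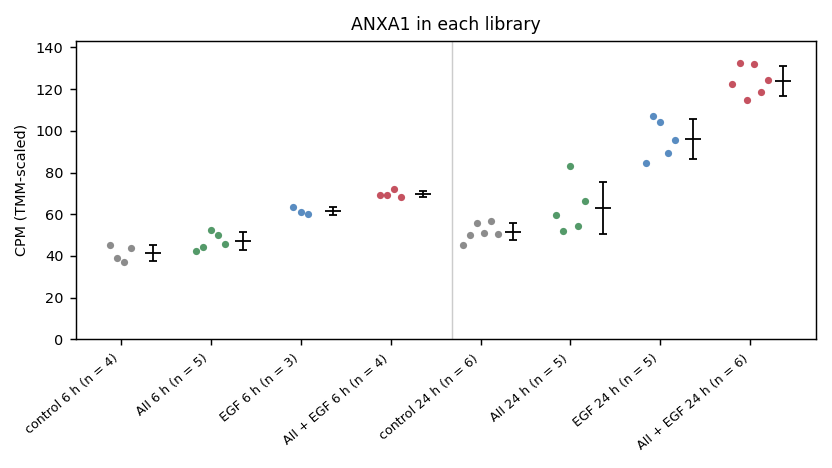
ANXA1 in CPM scaled by TMM factors (y axis, linear from 0) in each of the 38 libraries (points) of the 8 groups (x axis), with the mean and SD of each group as a black bar. Group means run from 41.2 CPM in control 6 h to 124 CPM in AII + EGF 24 h, and the 6 AII + EGF 24 h libraries all lie above the EGF 24 h libraries.

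Expressed per kilobase of the canonical transcript, ANXA2 and ANXA5 were the most abundant members in control cells at 6 h. Their levels were 211 ± 29.1 and 167 ± 18.1 CPM per kb (SD, n = 4). ANXA6 (32.8 CPM per kb), ANXA1 (29.4), ANXA7 (21.9), ANXA11 (13.6) and ANXA4 (12.2) followed, and ANXA3 was lowest at 1.80 ± 0.214 CPM per kb. This order depends on the length used, since counts are per gene. All exons of ANXA2 together cover 11574 bases, against 1554 in its canonical transcript, and those of ANXA5 cover 2925 against 1638. The span of the group means over the 8 groups differed between members in another order. It was 3.998-fold for ANXA3, 3.01-fold for ANXA1, 2.27-fold for ANXA4, 1.84-fold for ANXA6 and 1.78-fold for ANXA2. ANXA5 (1.39-fold), ANXA11 (1.32-fold) and ANXA7 (1.27-fold) varied least. In bulk RNA a change of the level in each cell and a change in the share of cells that express the gene cannot be told apart.

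AII alone at 6 h was followed by a change of 1 member, ANXA3, a phospholipid-binding annexin known from neutrophil granules and from angiogenesis. The ANXA3 level was 2.87, 2.78, 2.20 and 2.45 CPM in the 4 control libraries and 6.74, 5.37, 7.67, 8.33 and 5.88 CPM in the 5 AII libraries. The lowest AII library thus lay above the highest control library. These levels rest on 41 to 61 counts per control library and 100 to 165 counts per AII library. AII 6 h replicates 1 and 2 share a run of consecutive sample titles and are much alike. Their chi-square per degree of freedom was 2.025, the lowest among pairs of libraries used. ANXA3 rose by 1.39 ± 0.20 on the log2 scale (SE; adjusted p = 2.99e-05, edgeR quasi-likelihood test, Benjamini-Hochberg adjusted across 19626 genes). A gene is said to have passed at an adjusted p under 0.01, and to be called when it also changed at least 1.5-fold with a mean above 5 CPM in the higher group. Of all genes tested, 0.922% passed and 0.469% were called in this comparison, so 1 of 8 members called stands against that background.

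Among the other members, ANXA4 was lower in all 5 AII libraries (24.1 to 30.1 CPM) than in the 4 control libraries (30.9 to 35.6 CPM), with a change of -0.24 ± 0.10 and an adjusted p of 0.309. ANXA1 changed by 0.19 ± 0.10 (adjusted p = 0.466). The median change of the 8 members was 0.04, beside -0.01 over all genes. With all 48 libraries, which adds control 6 h replicates 1 and 2 at 4.99 and 5.19 CPM, the ANXA3 change was 0.97 with an adjusted p of 0.0137. Both of these libraries belong to near-identical pairs with libraries labelled 24 h.

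EGF alone at 6 h was followed by a rise of ANXA1. Its level was 45.2, 38.9, 37.2 and 43.8 CPM in the control libraries and 63.4, 61.1 and 60.0 CPM in the EGF libraries. The groups did not overlap, and the 3 EGF libraries spanned less than the 4 controls. EGF 6 h replicates 3 and 4 share a run of consecutive sample titles and are much alike. Their chi-square per degree of freedom was 3.325, against a median of 34.99 over pairs within a group. ANXA1 rose by 0.58 ± 0.11 on the log2 scale (adjusted p = 0.000594), which is 1.49-fold and just under the fold minimum. It was thus the 1 member that passed, where 3.37% of all genes passed, and no member was called, where 1.94% of all genes were. At an unadjusted p under 0.05 stood 3 members, ANXA1, ANXA2 and ANXA4, beside 3489 of 19626 genes. DESeq2 also passed 1 member and called none.

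ANXA2 was 447.7, 439.4 and 492.97 CPM under EGF, above the control libraries at 388, 338, 299 and 287 CPM, with a change of 0.49 ± 0.16 and an adjusted p of 0.0625. The ANXA4 level under EGF was 26.14, 27.02 and 26.96 CPM, below all 4 controls, with a change of -0.28 ± 0.12 and an adjusted p of 0.195. ANXA3 did not follow: its 3 EGF libraries held 2.50, 3.64 and 2.52 CPM, and the change of 0.16 had a 95% interval from -0.29 to 0.62. The median change of the members was 0.14, beside -0.01 over all genes. When the libraries of 1 group and 1 run of consecutive sample titles were summed, which leaves 2 EGF libraries, the adjusted p of ANXA1 was 0.0150. With all 48 libraries ANXA2 and ANXA4 passed at adjusted p of 0.00528 and 0.00205.

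**Figure D2:**
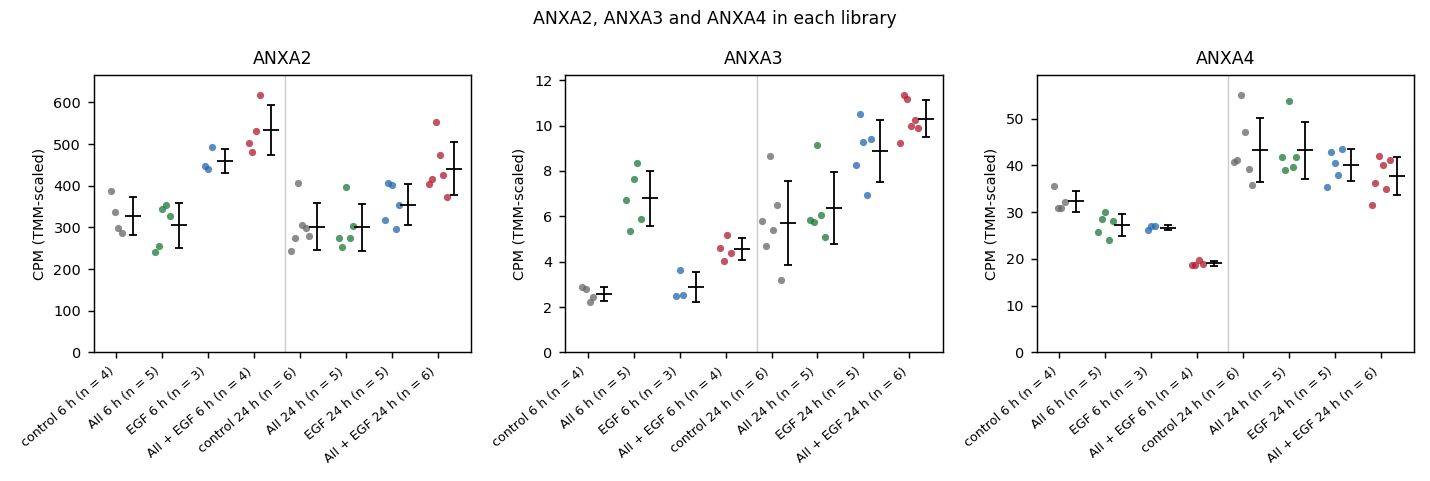
ANXA2, ANXA3 and ANXA4 (panels) in CPM scaled by TMM factors (y axes, linear from 0) in each library (points) of the 8 groups (x axes), with group mean and SD as black bars. ANXA3 is highest at 6 h under AII alone and at 24 h in the groups with EGF, and the 4 AII + EGF 6 h libraries of ANXA4 lie between 18.6 and 19.8 CPM, below the other libraries plotted.

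AII + EGF at 6 h changed 4 of the 8 members. ANXA1, ANXA2 and ANXA3 rose and ANXA4 fell, and ANXA1, ANXA2 and ANXA4 were called. In this comparison 23.4% of all genes passed and 12% were called, so a large part of the transcriptome moved with them, and the median change of the members was 0.13, beside -0.03 over all genes. ANXA1 was 69.3, 69.4, 72.0 and 68.3 CPM, all above the EGF libraries and the controls, and rose by 0.76 ± 0.11 (adjusted p = 3.71e-07). ANXA2 was 502, 482, 532 and 618 CPM, all above the highest control of 388 CPM, and rose by 0.70 ± 0.15 (adjusted p = 0.000312). Both also lay above every AII library of the same time.

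ANXA3 was 4.59, 4.02, 5.19 and 4.39 CPM, between the control libraries and the AII libraries without overlap with either. It rose by 0.82 ± 0.21 against control (adjusted p = 0.00278), with a mean of 4.55 ± 0.490 CPM under the abundance minimum. ANXA4, a calcium-binding annexin of epithelia that lowers the mobility of lipids in membranes, was 18.79, 18.64, 19.80 and 19.001 CPM against 35.6, 30.9, 30.9 and 32.1 CPM in control. These 4 libraries lay close together and below all other libraries used, and ANXA4 fell by 0.76 ± 0.11 (adjusted p = 9.84e-07). ANXA5 (0.26 ± 0.13, adjusted p = 0.140), ANXA6 (-0.33 ± 0.14, adjusted p = 0.0640), ANXA11 (-0.22 ± 0.14, adjusted p = 0.267) and ANXA7 (0.01 ± 0.13, adjusted p = 0.981) did not pass.

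The calls of ANXA1 and ANXA4 under AII + EGF at 6 h held under all 12 alternatives. That of ANXA2 was lost in the fit that kept the libraries with labels in doubt (0.58, adjusted p = 0.0116). ANXA3 no longer passed with all 48 libraries (0.72, adjusted p = 0.0153) or with the near-identical pairs kept (0.36, adjusted p = 0.179), nor without AII + EGF 6 h replicate 3 (adjusted p = 0.0124), control 6 h replicate 5 (0.0122) or control 6 h replicate 6 (0.0102). The sum of the HEK293 genes named above moved with the same groups, from 2665 to 4770 CPM in control 6 h to 7696 to 9924 CPM in AII + EGF 6 h, mainly through NEFM, whose part in these results was not tested. The summed markers of other cell types were 12.7 to 14.8 CPM in control and 11.8 to 16.3 CPM under AII + EGF.

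Set against EGF alone at 6 h, AII + EGF lowered ANXA4 further, by 0.49 ± 0.12 on the log2 scale (adjusted p = 0.00554), or 19.1 ± 0.516 CPM (SD, n = 4) against 26.7 ± 0.490 CPM (SD, n = 3). It was the 1 member that passed, where 529 of 19626 genes passed as higher and 533 as lower. ANXA4 missed the fold minimum, so no member was called, where 2.92% of all genes were. At an unadjusted p under 0.05 stood ANXA3, ANXA4 and ANXA6, beside 4618 genes, while DESeq2 called no member. The pass of ANXA4 was lost when any 1 of the 7 libraries was left out (adjusted p = 0.0105 to 0.0270), as well as with the libraries left out before added back (-0.24, adjusted p = 0.190). ANXA1 under AII + EGF exceeded EGF alone by 0.18 ± 0.11 (adjusted p = 0.350; 95% interval -0.04 to 0.40) and ANXA2 by 0.21 ± 0.16 (adjusted p = 0.463; -0.10 to 0.53). The ANXA3 difference was 0.65 ± 0.23 (adjusted p = 0.0587). With runs of titles as a block ANXA2 (0.39, adjusted p = 0.00916) and ANXA3 (0.80, adjusted p = 0.00730) passed.

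Set against AII alone at 6 h, AII + EGF gave more ANXA1 and ANXA2 and less ANXA4 and ANXA6. Of 19626 genes tested, 1860 passed as higher and 1585 as lower. ANXA2 was called at 0.81 ± 0.14 (adjusted p = 2.96e-05), where 7.6% of all genes were called, and its AII libraries held 240, 256, 345, 354 and 329 CPM. ANXA1 was higher by 0.57 ± 0.10 (adjusted p = 2.67e-05), ANXA4 lower by a log2 difference of -0.52 ± 0.11 (adjusted p = 0.000277) and ANXA6 by -0.51 ± 0.13 (adjusted p = 0.00316). ANXA6, which is built as a doubled annexin core and brings p120 RasGAP to membranes, was 73.9, 71.6, 72.5 and 83.5 CPM under AII + EGF and 92.2 to 123 CPM under AII. ANXA3 pointed down against AII (-0.58 ± 0.19, adjusted p = 0.0230) and did not pass. All 48 libraries, which put the 2 libraries with labels in doubt back, left none of these 4 past the threshold (adjusted p = 0.0160 to 0.0453). Leaving out AII 6 h replicate 4 or AII + EGF 6 h replicate 1, 2 or 3 took the pass of ANXA6 (adjusted p = 0.0106 to 0.0130).

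The interaction term asks whether AII + EGF differs from the sum of both single changes on the log2 scale. At 6 h no member passed, and 0.229% of all genes were called. The term of ANXA1 was -0.01 ± 0.15, with a 95% interval from -0.30 to 0.29, so its joint change of 0.76 lay at the sum of 0.19 and 0.58. ANXA3 had the most negative term, -0.74 ± 0.30 (adjusted p = 0.349), followed by ANXA6 at -0.53 ± 0.20 (adjusted p = 0.277). Both stood at an unadjusted p under 0.05, beside 1916 of 19626 genes, and DESeq2 passed no member. The terms of ANXA2 (0.32 ± 0.22) and ANXA4 (-0.24 ± 0.16) also included 0 in their intervals.

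**Figure D3:**
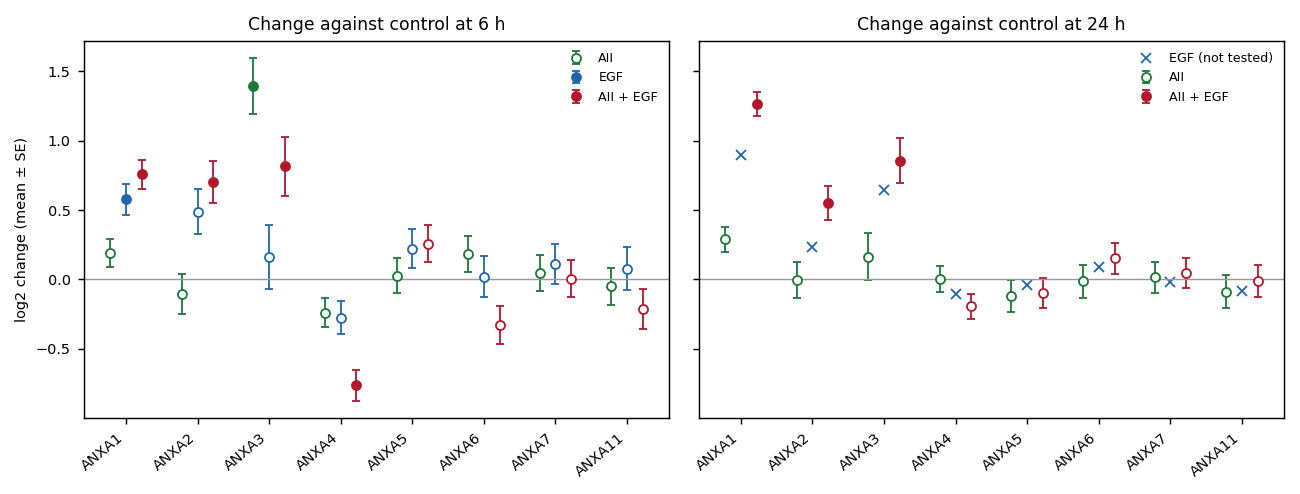
log2 change against control (y axis, mean ± SE) of the 8 members (x axis) at 6 h (left) and 24 h (right) under AII, EGF and AII + EGF (colours). Filled circles passed at an adjusted p under 0.01, open circles did not, and crosses show EGF at 24 h, which was not tested. At 6 h ANXA3 under AII is highest at 1.39 and ANXA4 under AII + EGF is lowest at -0.76, and at 24 h ANXA1 under AII + EGF is highest at 1.27.

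AII alone at 24 h was followed by no change that passed, in any member or any gene. The share of all genes that passed was 0% and the share called was 0% with edgeR, DESeq2 also called 0 genes, and 343 genes had an unadjusted p under 0.05. ANXA1 was the 1 member among these. Its level was 59.5, 52.1, 83.1, 54.3 and 66.3 CPM under AII, partly within the control range of 45.4 to 56.8 CPM (median 50.7), and the change was 0.29 ± 0.09 (adjusted p = 0.9999). The control libraries are those of the EGF contrast by which ANXA1 was chosen, and that choice can enlarge this change. ANXA3, which had risen at 6 h, was 5.84, 5.75, 9.15, 6.05 and 5.10 CPM against 3.18 to 8.64 CPM (median 5.60) in control. Its change was 0.16 ± 0.17, with a 95% interval from -0.17 to 0.49.

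EGF alone at 24 h is the contrast from which the list was chosen, and its values are a description. ANXA1 was 84.5, 107, 104, 89.5 and 95.5 CPM under EGF, all above the control libraries of that time, a change of 0.90 on the log2 scale or 1.86-fold. ANXA3 was 8.25, 10.5, 9.29, 6.93 and 9.39 CPM (0.64, overlapping with control). The changes of the other members were 0.24 for ANXA2, 0.09 for ANXA6, -0.02 for ANXA7, -0.04 for ANXA5, -0.09 for ANXA11 and -0.11 for ANXA4, all with overlapping groups. In this contrast 0.245% of all genes were called. Just inside the 1.5-fold minimum lay ANXA3 at 1.56-fold, and the nearest member outside it was ANXA2 at 1.18-fold.

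AII + EGF at 24 h raised ANXA1, ANXA2 and ANXA3, and ANXA4 no longer stood apart from control. The control libraries are the same as in the EGF contrast above, so the choice of ANXA1 by that contrast can enlarge its change here. ANXA1 ran from 115 over a median of 123 to 133 CPM under AII + EGF, against 45.4, 50.7 and 56.8 CPM in control. The lowest treated library held more than the highest control by a wide margin, and ANXA1 rose by 1.27 ± 0.09, or 2.40-fold (adjusted p = 1.02e-12). ANXA3 ran from 9.23 over 10.1 to 11.3 CPM, above every control library, and rose by 0.86 ± 0.16 (adjusted p = 0.000163). ANXA2 ran from 374 over 421 to 553 CPM against 243, 289 and 408 CPM, with overlap, and rose by 0.55 ± 0.12 (adjusted p = 0.00130), under the fold minimum.

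Of all genes, 10.4% passed and 2.9% were called in this comparison, and of the 8 members 3 passed and 2 were called. The median change of the members was 0.10, beside -0.02 over all genes. The change of ANXA4 was -0.20 ± 0.09 (adjusted p = 0.1202), and the other 4 members lay between -0.10 and 0.15 with adjusted p of 0.366 or more. ANXA1 and ANXA3 were called in all 12 alternatives and without any 1 of the 12 libraries. The summed markers of other cell types, of which COL1A1 made up most, were 14.6 to 41.7 CPM in control 24 h and 33.1 to 39.9 CPM in AII + EGF 24 h, and their part in the result was not tested. ANXA2 no longer passed with only the compared groups in the fit (adjusted p = 0.0123) or with summed libraries (adjusted p = 0.0196).

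Against EGF alone at 24 h, AII + EGF had more ANXA1 by 0.37 ± 0.09, without overlap between the libraries, but with an adjusted p of 0.0422 that missed the threshold. In this comparison 0.0917% of all genes were called and no member was. ANXA1 and ANXA2 (0.31 ± 0.13) had an unadjusted p under 0.05, beside 2094 of 19626 genes. DESeq2 called no member but passed ANXA1 at an adjusted p of 0.00706. With runs of titles as a block ANXA1 (0.39, adjusted p = 0.00112) and ANXA2 (0.35, adjusted p = 0.00552) passed. The EGF 24 h libraries are those of the contrast that chose the list. Against AII alone at 24 h, where 1.45% of all genes were called, ANXA1 (0.98 ± 0.09, adjusted p = 8.04e-09) and ANXA3 (0.69 ± 0.17, adjusted p = 0.00554) were called, and ANXA2 passed (0.56 ± 0.13, adjusted p = 0.00404). Of 19626 genes tested there, 468 passed as higher and 443 as lower. The pass of ANXA3 was lost without AII 24 h replicate 1, 2, 5 or 6 or AII + EGF 24 h replicate 2, 3, 4 or 5 (adjusted p = 0.01001 to 0.0265). That of ANXA2 was lost without AII 24 h replicate 1, 2, 5 or 6 or AII + EGF 24 h replicate 3 or 4 (adjusted p = 0.0110 to 0.0201). The interaction at 24 h gave 0% of genes called by edgeR and 0 by DESeq2, with 660 genes and no member at an unadjusted p under 0.05, and the term of ANXA1 was 0.08 ± 0.13 (95% interval -0.17 to 0.33). The term holds, with a minus sign, the EGF change at 24 h by which ANXA1 was chosen. That choice can lower it, so for ANXA1 it is no independent test.

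The ratios to control within runs of consecutive sample titles, which the labels do not call batches, kept the direction of the main changes. Libraries of the same group and title run differed less from each other than libraries of different runs, with a median chi-square per degree of freedom of 9.57 over 11 pairs against 38.13 over 64 pairs. At 6 h the groups are unevenly spread over runs. Replicates 1 and 2 of AII and of AII + EGF lie in runs without a control library used, and control replicate 6 in one without a treated library. These libraries enter no ratio here but do enter the main fit. ANXA1 was higher under AII + EGF in 4 of 4 runs at 24 h (log2 ratios 1.06 to 1.42) and in 2 of 2 runs at 6 h (0.78 and 0.88), and under EGF at 6 h in 2 of 2 runs (0.57 and 0.69). Its ratios under EGF at 24 h, the contrast that chose the list, were 0.66 to 0.98 and are a description. ANXA3 was higher under AII at 6 h in 2 of 2 runs (1.41 and 1.5006) and under AII + EGF at 24 h in 4 of 4 runs (0.59 to 1.64). ANXA4 was lower under AII + EGF at 6 h in 2 of 2 runs (-0.75 and -0.70), and ANXA2 was higher there in 2 of 2 runs (0.55 and 1.05). Under AII at 24 h the ANXA1 ratios ran from -0.06 to 0.64.

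**Figure D4:**
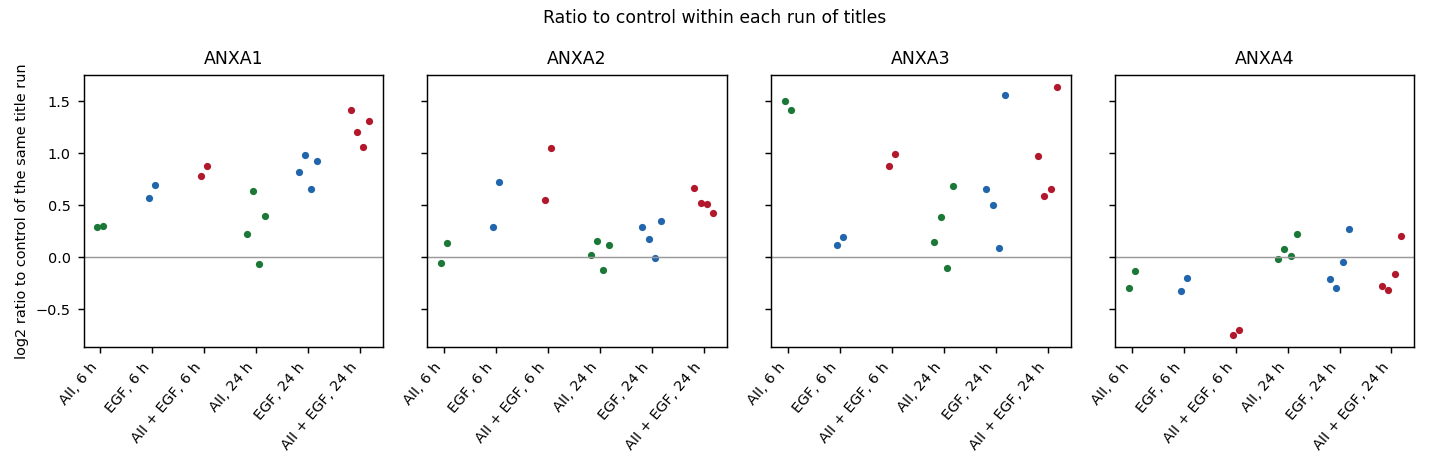
log2 ratio of the mean CPM in treated libraries to that in control libraries of the same run of titles (y axis) for ANXA1, ANXA2, ANXA3 and ANXA4 (panels) in each stimulus and time (x axis), with 1 point per run, 2 at 6 h and 4 at 24 h. ANXA1 points under AII + EGF lie from 0.78 to 1.42 and under EGF at 6 h at 0.57 and 0.69, the EGF 24 h points (0.66 to 0.98 for ANXA1) belong to the contrast that chose the list, and both ANXA4 points under AII + EGF at 6 h lie at or below -0.70.

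In unstimulated cells 3 of the 8 members passed as higher in the 24 h than in the 6 h libraries. Of 19626 genes tested, 2340 passed as higher and 1798 as lower. From 6 h to 24 h ANXA3 rose in control by 1.14 ± 0.20 (adjusted p = 3.68e-05), from 2.58 ± 0.307 to 5.70 ± 1.83 CPM (SD, n = 4 and 6), and was the 1 member called, where 6.73% of all genes were. ANXA4 rose by 0.42 ± 0.10 (adjusted p = 0.00165) and ANXA1 by 0.32 ± 0.10 (adjusted p = 0.00934), both under the fold minimum. ANXA6 was higher by 0.40 ± 0.13 (adjusted p = 0.0142), and the median change of the members was 0.25, beside 0.03 over all genes. Among the 38 libraries no run of titles holds both times, so the time of incubation and the run cannot be told apart. With all 48 libraries none of the 3 passed (ANXA3 0.73, adjusted p = 0.0269), and without 1 library ANXA1 lost its pass in 8 of 10 fits (0.28 to 0.36, adjusted p up to 0.0466), those without control 24 h replicate 2, 3, 4, 5 or 6 or control 6 h replicate 4, 5 or 6.

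The responses themselves were compared between times as the log2 change at 24 h minus that at 6 h. Under AII the ANXA3 response was smaller at 24 h by a log2 difference of -1.23 ± 0.26 (adjusted p = 0.0165), which missed the threshold, no member was called and 0.138% of all genes were. DESeq2 called ANXA3 here (-1.24, adjusted p = 0.00154), and it also passed without AII 24 h replicate 3 (-1.40, adjusted p = 0.00291) or control 24 h replicate 6 (-1.35, adjusted p = 0.00156). Under AII + EGF, ANXA1 had a larger response at 24 h by 0.51 ± 0.14 (adjusted p = 0.00445), and the response of ANXA4 was less negative by 0.57 ± 0.14 (adjusted p = 0.00269). The difference uses the control 24 h libraries of the EGF contrast by which ANXA1 was chosen. That choice can enlarge it, so for ANXA1 it is no independent test. Of 19626 genes tested, 1489 passed with a positive and 1735 with a negative difference. Neither ANXA1 nor ANXA4 reached 1.5-fold, so none of the 8 members was called, where 11.6% of all genes were. DESeq2 called no member as well. ANXA1, ANXA4, ANXA5 (-0.36 ± 0.17) and ANXA6 (0.48 ± 0.18) had an unadjusted p under 0.05, beside 7079 of 19626 genes. The ANXA1 difference did not pass without control 6 h replicate 3 (0.46, adjusted p = 0.0152), control 6 h replicate 6 (0.0109) or AII + EGF 6 h replicate 5 (0.0101), and with the libraries of doubtful label kept neither ANXA1 (0.53, adjusted p = 0.0118) nor ANXA4 (0.46, adjusted p = 0.0507) did. With runs of titles as a block (0.41, adjusted p = 0.0125), with no filter on low counts (0.0152) and with summed libraries (0.0454) ANXA1 did not pass either, nor did ANXA4 with summed libraries (0.0130). For EGF alone the same difference, as a description, was 0.32 for ANXA1, 0.48 for ANXA3 and 0.17 for ANXA4.

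The 8 group means of ANXA1 can be put in order, with neighbours that overlap in their libraries. Control 6 h (41.2 ± 3.83 CPM, SD, n = 4), AII 6 h (47.003 ± 4.30, n = 5) and control 24 h (51.6 ± 4.18, n = 6) overlapped from each to the next in this order. EGF 6 h (61.5 ± 1.75, n = 3) lay above control 24 h without overlap, and AII 24 h (63.1 ± 12.5, n = 5) overlapped with it and with AII + EGF 6 h (69.8 ± 1.59, n = 4). EGF 24 h (96.2 ± 9.59, n = 5) and AII + EGF 24 h (124 ± 7.19, n = 6) stood above these and apart from each other. For ANXA4 the order ran the other way at 6 h, from control (32.4 ± 2.23 CPM, n = 4) over AII (27.3 ± 2.38, n = 5) and EGF (26.7 ± 0.490, n = 3) to AII + EGF (19.1 ± 0.516, n = 4), and AII and EGF overlapped.

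ANXA5, ANXA7 and ANXA11 passed in none of the 14 comparisons tested, in the fit without a block. ANXA5, the annexin used to stain phosphatidylserine on dying cells, had group means from 235 ± 53.6 CPM (AII 24 h, n = 5) to 326 ± 37.97 CPM (AII + EGF 6 h, n = 4). ANXA7, a binding partner of sorcin, ran from 45.5 ± 6.65 CPM (EGF 24 h, n = 5) to 57.8 ± 3.83 CPM (EGF 6 h, n = 3). ANXA11, which tethers RNA granules to lysosomes and binds ALG-2, ran from 78.9 ± 7.61 CPM (AII + EGF 6 h, n = 4) to 104 ± 26.7 CPM (control 24 h, n = 6). Their neighbouring groups overlapped in nearly every case, and for ANXA7 the 95% intervals of the 5 tested changes against control all lay within -0.26 and 0.39. In the fit with title runs as a block ANXA5 passed at 6 h under AII + EGF against control (0.33, adjusted p = 0.00483) and against AII (0.26, adjusted p = 0.00548), and in the AII + EGF response at 24 h minus 6 h (-0.43, adjusted p = 0.00337).

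**Figure D5:**
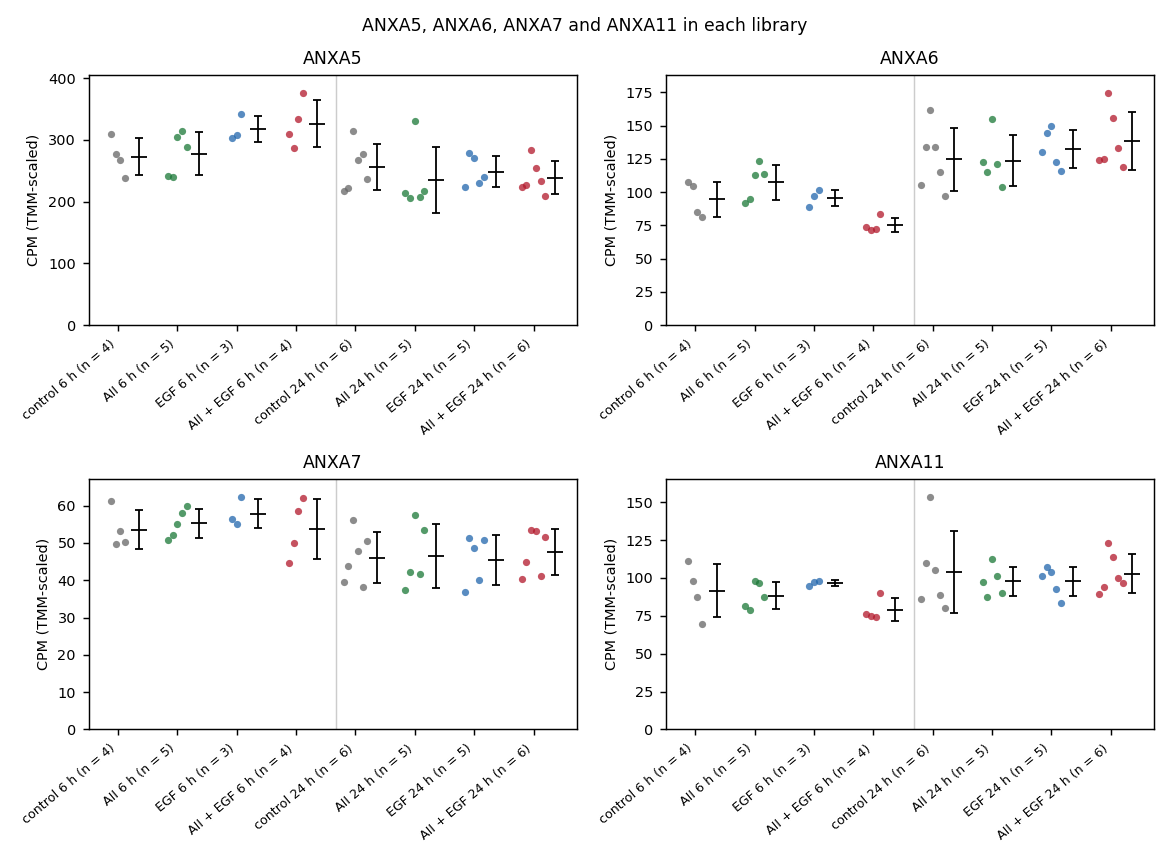
ANXA5, ANXA6, ANXA7 and ANXA11 (panels) in CPM scaled by TMM factors (y axes, linear from 0) in each library (points) of the 8 groups (x axes), with group mean and SD as black bars. Most neighbouring groups overlap, and the AII + EGF 6 h libraries of ANXA6, at 71.6 to 83.5 CPM, have the lowest mean of the 8 groups but overlap with control 6 h.

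Of the 5 other protein-coding annexins, ANXA9 was expressed at 4.65 to 15.9 CPM and was tested, and ANXA8, ANXA8L1, ANXA10 and ANXA13 stayed under 0.390 CPM in every library. ANXA9 is an annexin with degenerate calcium sites. At 6 h it was 4.84 ± 0.247 CPM (SD, n = 4) under AII + EGF against 7.60 ± 0.0953 CPM (n = 4) in control and fell by 0.65 ± 0.12 (adjusted p = 6.52e-05). Its response to AII + EGF was higher at 24 h than at 6 h by 0.98 ± 0.16 (adjusted p = 9.27e-06). ANXA2P2, a processed copy of ANXA2 that can take its reads, held 5.44 to 7.14% as many counts as ANXA2 (median 6.23%, n = 38) and rose with it under AII + EGF at 6 h (0.75 ± 0.17) and 24 h (0.64 ± 0.14). The counts of both are therefore uncertain by the reads they share. ANXA2P1 stayed at or under 0.410 CPM and ANXA2P3 was at 0 in every library.

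Annexins work with S100 proteins, small calcium sensors that bridge pairs of annexin molecules. S100A10, the partner of ANXA2, passed in 1 of 14 comparisons, AII + EGF against AII at 6 h (0.68 ± 0.19, adjusted p = 0.00524), with 151 ± 21.4 CPM (SD, n = 4) against 94.5 ± 6.82 CPM (n = 5). Against control at 6 h its change under AII + EGF was 0.56 ± 0.20 (adjusted p = 0.0257). S100A11, the partner of ANXA1, passed in none, with a change of 0.49 ± 0.23 under AII + EGF at 6 h (adjusted p = 0.108). At 24 h under AII + EGF, where 10.4% of all genes passed, 2 of the 5 S100 genes tested rose, S100A4 by 1.23 ± 0.19 (adjusted p = 8.59e-06) and S100A13 by 0.57 ± 0.13 (adjusted p = 0.00238), and none fell. S100A4, a protein of motile cells, went from 5.53 ± 2.29 CPM in control to 12.98 ± 1.66 CPM (SD, n = 6 each). S100A6 stayed under 0.288 CPM.

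Of 9 genes for binding and repair partners, 1 rose under EGF at 6 h and 1 under AII + EGF at 6 h, PLAT in both cases, where 3.37% and 23.4% of all genes passed. PLAT encodes tissue plasminogen activator, a ligand of the ANXA2 complex, and rose by 0.79 ± 0.13 (adjusted p = 7.97e-05) and 0.96 ± 0.13 (adjusted p = 1.05e-07). Its level was 29.1 ± 0.918 CPM in control (SD, n = 4), 50.3 ± 3.45 CPM with EGF alone (n = 3) and, for AII + EGF, 56.7 ± 8.12 CPM (n = 4). None of the 9 passed under AII + EGF at 24 h. Of 6 genes for the exposure of phosphatidylserine that were tested, the lipid to which ANXA5 binds, none passed in any of the 14 comparisons.

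The receptors of extracellular ANXA1, FPR1, FPR2 and FPR3, held at most 4 counts in any library and stayed under 0.168 CPM, which is too few to tell groups apart. PLA2G4A, the cytosolic phospholipase A2 that ANXA1 is known to inhibit, rose under AII + EGF at 24 h by 0.65 ± 0.12 (adjusted p = 0.000177), from 9.35 ± 1.14 to 14.7 ± 1.28 CPM (SD, n = 6 each). It was the 1 gene that passed there of 3 tested in a list of 6 with these receptors, where 10.4% of all genes passed. TRPM7 and PTGS2 were the others tested. Among 4 genes of the glucocorticoid receptor and its targets, 1 rose under AII + EGF at each time, where 23.4% of all genes passed at 6 h and 10.4% at 24 h. FKBP5 rose at 6 h under EGF by 0.69 ± 0.10 (adjusted p = 1.14e-05) and under AII + EGF by 1.11 ± 0.10 (adjusted p = 1.22e-11), and ZBTB16 at 24 h under AII + EGF by 0.91 ± 0.14 (adjusted p = 1.28e-05). TSC22D3 was lower under AII + EGF than under AII at 6 h by a log2 difference of -1.60 ± 0.38 (adjusted p = 0.00151). NR3C1, the receptor itself, lay between 51.7 and 85.3 CPM in all 38 libraries and passed in no comparison.

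Over the 38 libraries, genes among those most like ANXA1 in log2(CPM + 1) of 11763 genes compared were HPCAL4, a neuronal calcium sensor (Pearson r 0.879), HID1 (0.867), SYTL4, a Rab27 effector of exocytosis (0.856), and PTGR1, which degrades prostaglandins (0.852). For ANXA3, the other member with a large span, they were NUPR1, a stress-induced nuclear protein (0.893), PCK2, the mitochondrial PEP carboxykinase (0.869), and PARM1 (0.845). Within the family ANXA1 followed ANXA3 (r 0.710) more closely than ANXA2 (0.534) and ANXA4 (0.214). ANXA4 and ANXA6 (0.799) and ANXA6 and ANXA11 (0.818) were the closest pairs of members. These are descriptions over libraries that fall into the 8 groups and share cells, runs and times.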

How the data were processed

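The authors sequenced poly(A) RNA as paired-end reads, aligned them to hg38 with HISAT2 2.1.0 and counted them per Ensembl gene with featureCounts, and the deposited values are raw counts that they did not normalise. Handling of strand and of reads that match several places was not given in the sources used here. The members and lists were chosen with earlier results of these data known.

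From the counts, 1 model over 38 libraries and 8 groups was fitted with edgeR 4.0.16 (R 4.3.3; quasi-likelihood, TMM factors, filterByExpr by group, no covariate). The adjusted p (Benjamini-Hochberg over 19626 genes) had to be under 0.01 to pass, and a call also needed 1.5-fold and 5 CPM, the limits of the study's methods. The study kept only genes regulated in both edgeR and DESeq2, whereas calls here come from edgeR alone unless DESeq2 is named. CPM are scaled by TMM factors, SE were derived from the F statistic, and 95% intervals are 1.96 SE to either side. They assume the spread between libraries used, and counting error is part of it. The script was tested on simulated data.

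Alternatives were DESeq2 1.42.0, RLE factors, other filters and thresholds, all 48 libraries or either set of left-out libraries put back, the compared groups only, runs of titles as a block, and each library left out. Summing libraries of a group and run was chosen after seeing the data. Replicate numbers follow accession order, so they pair no samples. All members were named in all comparisons, other lists by their counts with the genes that passed, and the 5 genes most like ANXA1 and the 3 most like ANXA3 by correlation, of which 1 is not reported here. Promoters came from RefSeq, and transcript lengths from GENCODE. Python 3.11.15 with pandas 2.3.3 and matplotlib 3.10.9 was used for tables and plots.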

Additional observations from a re-analysis of the deposited data

Results flagged for a closer look

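In 4 of 56 combinations of member and group with 4 or more libraries, 1 library lay far from the rest by Dixon's test, which chance gives in about 1 of 20 groups. In 3 of these it was AII 24 h replicate 3. ANXA3 was 9.15 CPM there and 5.10 to 6.05 CPM in the other AII 24 h libraries, ANXA4 was 53.9 CPM against 39.01 to 41.9 CPM, and ANXA5 was 331 CPM against 205 to 217 CPM. It was the 1 AII 24 h library used from its run of sample titles. The 2 control 24 h libraries of that run had means of 7.02 CPM for ANXA3, 51.1 CPM for ANXA4 and 291 CPM for ANXA5. The part of the run in these values was not tested. ANXA11 in AII + EGF 6 h replicate 5 was 90.2 CPM, and 74.3 to 76.4 CPM in the other libraries of that group.

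By the test of the difference itself, where 1489 of 19626 genes passed with a positive and 1735 with a negative difference, the response to AII + EGF differed between times in 2 members. It was larger at 24 h for ANXA1 by 0.51 on the log2 scale (adjusted p = 0.00445) and less negative for ANXA4 by 0.57 (adjusted p = 0.00269). For ANXA1 this is no independent test, since the control 24 h libraries are those of the contrast that chose it, which can enlarge the difference. With runs of titles as a block the ANXA1 difference was 0.41 (adjusted p = 0.0125) and did not pass, nor did it with no filter on low counts (0.0152) or summed libraries (0.0454).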

How the results depend on the processing

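Of 1336 member results under alternatives other than leaving out 1 library, 1264 kept direction and side of the threshold, 47 lost it, 25 gained it and 0 reversed. Leaving out 1 library gave 1340, 39, 5 and 0 of 1384. The cause of the changes was not tested. Counts of called members moved as follows. With all 48 libraries the count for AII against control at 6 h went from 1 to 0, for AII + EGF against AII from 1 to 0 at 6 h and from 2 to 1 at 24 h, for control over time from 1 to 0 and for the AII + EGF response over time from 0 to 1. With the near-identical pairs kept the last 2 became 0 and 2. With the libraries of doubtful label kept, AII + EGF against AII gave 0 at 6 h and 1 at 24 h, and with summed libraries 1 at 24 h. With only the groups compared it gave 2 at 6 h and 1 at 24 h, and the AII + EGF response gave 1. With no fold minimum the counts were 1 for EGF against control and 1 for AII + EGF against EGF at 6 h, 4 for AII + EGF against AII at 6 h, 3 for control over time, 2 for the AII + EGF response, and 3 in place of 2 for AII + EGF against control and against AII at 24 h. The AII response over time went from 0 to 1 with DESeq2, with no filter on low counts and at an adjusted p under 0.05, and the AII + EGF response from 0 to 1 with no filter and with the filter of the study. With runs of titles as a block, EGF against control at 6 h gave 1, AII + EGF against AII at 6 h 2 and the AII response 1, and the block could not be fitted for control over time, since no run holds both times.

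Leaving out 1 library gave 0 to 1 called members for EGF against control at 6 h (1 without control 6 h replicate 3 or 6 or EGF 6 h replicate 5), 1 to 2 for AII + EGF against AII at 6 h and 1 to 3 at 24 h (3 without AII 24 h replicate 3 or AII + EGF 24 h replicate 6), 2 to 3 for AII + EGF against control at 24 h (3 without control 24 h replicate 3 or AII + EGF 24 h replicate 2 or 6), 0 to 1 for the AII response and 0 to 1 for the AII + EGF response. By replicate number, no paired analysis was possible because these numbers follow accession order and mark no shared culture or day. ANXA3 at 6 h rests on as few as 41 counts in a library, which limits its precision.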
